A study of Mus musculus with 96 samples.

Results

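The 10 genes described here, Slc7a1, Slc7a2, Slc7a5, Slc7a8, Slc3a2, Slc38a1, Slc38a2, Slc38a3, Slc38a4 and Slc38a9, encode carriers that move amino acids across membranes. They were chosen by name, each name matched 1 row of the deposited gene count table, and together they are 10 of its 56748 genes. Cells take up, release and exchange amino acids through such carriers, and the liver, skeletal muscle and brain use different ones: the liver clears amino acids arriving from the gut and from muscle, muscle stores and releases them, and the brain draws large neutral amino acids through the blood-brain barrier. Slc7a1 and Slc7a2 carry the cationic amino acids arginine, lysine and ornithine (system y+). Slc7a5 and Slc7a8 exchange large neutral amino acids (system L) and reach the cell surface bound to the heavy chain Slc3a2. Slc38a1, Slc38a2 and Slc38a4 take up small neutral amino acids with sodium (system A), Slc38a3 carries glutamine and histidine (system N), and Slc38a9 sits in the lysosomal membrane, where it reports arginine to the growth kinase complex mTORC1.

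The study compared C57BL/6 mice fed ad libitum (AL) with mice on daily intermittent fasting (IF), who had no food for 16 h and free access for 8 h of each day. RNA was sequenced from liver, skeletal muscle and cerebral cortex of 8 AL and 8 IF mice in each of 2 cohorts: mice 1-16, labelled male, and mice 25-40, labelled female. The males started the regimen at 6 weeks of age and kept it for 4 months; per the study's methods their tissues were taken after perfusion, in the morning when the daily fast of the IF group ended, while AL mice had unlimited food. For the females the age, duration and time of sampling are not given in the sources used here, which limits what their diet values and the cohort differences compare. Because each cohort holds 1 sex, cohort and sex label cannot be told apart. The cohorts were fitted separately, except to test the cohort by diet term.

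Each of the 95 libraries used held 26097314 to 49838004 counted reads, with a median of 36132954. Xist, which is transcribed from the inactive X chromosome, was at 36.8 to 1627 counts per 1000000 counted reads (CPM) in the 48 libraries of mice 25-40 and at 0.612 CPM or less in 47 libraries of mice 1-16. The cortex library of AL mouse 1 had 213 CPM of Xist and 0 CPM of the Y-linked genes Ddx3y, Uty, Kdm5d and Eif2s3y, against its male label, and was not used. Cortex of mice 1-16 is therefore 7 AL against 8 IF mice, and every other comparison of diets is 8 against 8. The tissue labels fitted their markers: the liver gene Alb was at 3.31 CPM or less outside liver, and the neuronal gene Snap25 was at 0.277 CPM or less outside cortex.

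In the GRCm39 build, the system A genes are neighbours on the minus strand of chromosome 15: Slc38a1 (ENSMUSG00000023169) at chr15:96469299-96540794, Slc38a2 (ENSMUSG00000022462) at chr15:96585273-96597611 and Slc38a4 (ENSMUSG00000022464) at chr15:96892701-96953837. The other members are spread over 6 chromosomes. Of the cationic carriers, Slc7a1 (ENSMUSG00000041313) lies at chr5:148264220-148336714 on the minus strand and Slc7a2 (ENSMUSG00000031596) at chr8:41315433-41375345 on the plus strand. In system L, Slc7a5 (ENSMUSG00000040010) lies at chr8:122607889-122634433, Slc7a8 (ENSMUSG00000022180) at chr14:54959666-55019403 and the heavy chain gene Slc3a2 (ENSMUSG00000010095) at chr19:8684246-8700733, all on the minus strand. The glutamine carrier gene Slc38a3 (ENSMUSG00000010064) lies at chr9:107527833-107546729 on the minus strand, and the lysosomal sensor gene Slc38a9 (ENSMUSG00000047789) at chr13:112797285-112875283 on the plus strand. Slc38a1, Slc38a4 and Slc38a9 overlap other annotated genes, and the other 7 members overlap none. The noncoding gene opposite Slc38a4 had a mean of 6.06 CPM in liver against 559.7 CPM for Slc38a4, and the genes overlapping Slc38a1 and Slc38a9 had means of 0.666 CPM or less in every tissue.

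Levels of different genes are compared per length, as transcripts per 1000000 (TPM), in AL mice 1-16. The deposited gene lengths run from 3529 bases for Slc3a2 to 17236 bases for Slc38a1. Their fit to the expressed transcripts was not checked. In liver the glutamine carrier gene Slc38a3 stood first at a median of 689.6 TPM (491 to 936 TPM over 8 mice). Slc38a4 followed at 209 TPM and Slc7a2, the low-affinity cationic carrier of liver, at 26.5 TPM. Slc3a2 (17.1 TPM) and Slc38a2 (12.9 TPM) came next, and the ranges of Slc7a2 and Slc3a2, and of Slc3a2 and Slc38a2, overlapped. Slc38a9, Slc7a8 and Slc7a5 lay together at 1.33, 1.15 and 1.06 TPM with overlapping ranges. Slc7a1 and Slc38a1 were the lowest in liver at 0.0835 and 0.0661 TPM, which rest on 3 to 44 and 8 to 46 counts in a library.

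Muscle had a flatter order on the TPM scale. The system A gene Slc38a4 led at 51.4 TPM (40.9 to 66.0 TPM), followed by Slc38a3 at 34.3 TPM, Slc38a2 at 21.7 TPM and Slc3a2 at 19.5 TPM, each overlapping its neighbour in this order. Slc7a2 and Slc7a8 were alike at 5.90 and 5.71 TPM, and Slc7a5, Slc38a9 and Slc7a1 stood lower at 1.53, 0.830 and 0.391 TPM. Slc38a1 was last at 0.0602 TPM, from 4 to 32 counts in a library. Cortex was led by system L: the heavy chain gene Slc3a2 had 111 TPM (99.7 to 138 TPM), and its partners Slc7a5 and Slc7a8 had 60.8 and 48.2 TPM, with Slc38a3 between them at 51.9 TPM. The ranges of Slc7a5, Slc38a3 and Slc7a8 overlapped. Slc38a2 (24.98 TPM) and Slc38a1 (17.0 TPM) also overlapped, and below them came Slc7a1 at 8.38 TPM, Slc7a2 at 4.87 TPM, Slc38a9 at 3.08 TPM and Slc38a4, last here, at 0.668 TPM. Without regard to length, Slc38a1 had a mean of 107.7 CPM in this cortex, beside 73.1 CPM for Slc7a5 and 83.4 CPM for Slc7a8. AL mice 25-40 had the same leading genes in liver and cortex, with Slc38a3 at 1275 TPM in liver and Slc3a2 at 135 TPM in cortex. In their muscle Slc38a3 (33.02 TPM) and Slc38a4 (30.2 TPM) exchanged places.

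**Figure D1:**
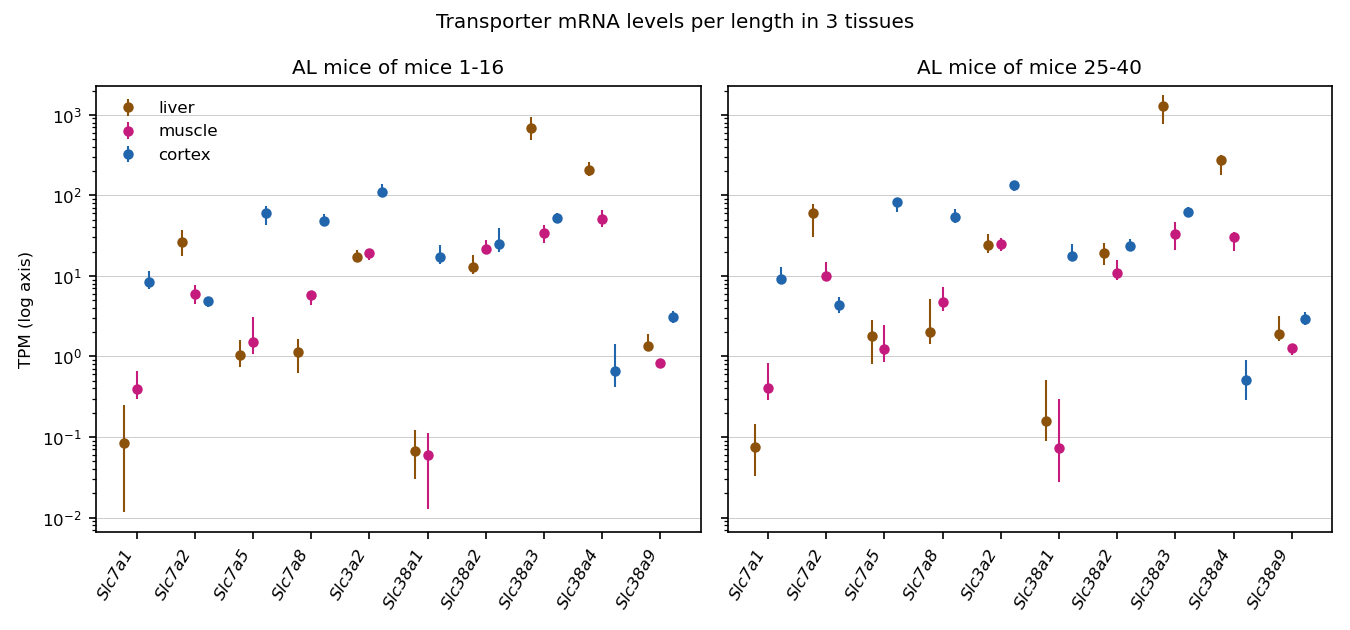
Levels of the 10 members in AL mice, in TPM on a log axis, for mice 1-16 (left) and mice 25-40 (right); dots are medians and bars run from the lowest to the highest library in liver, muscle and cortex. In mice 1-16 Slc38a3 stands highest in liver at 689.6 TPM, Slc38a4 in muscle at 51.4 TPM and Slc3a2 in cortex at 111 TPM.

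How far tissues differ in each gene was tested within AL mice, with mouse as a block. Differences are given as log2 fold changes with their standard error (SE), and a gene is called where p, adjusted across every gene in the fit, is under 0.05. Most genes differ between tissues, and the members' counts lie near that background. In mice 1-16 muscle and liver differed in 8 of 10 members, where 79.2 percent of all 19759 genes tested were called. Cortex and liver differed in 10 members (83.4 percent of all genes), and cortex and muscle in 10 (80.2 percent). In mice 25-40 the counts were 8 (79.1 percent of 19580 genes), 10 (84.01 percent) and 7 (80.5 percent).

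The members differed among themselves in the size and direction of these differences. Against liver, cortex of mice 1-16 had lower Slc38a4 (log2 difference -9.66 ± 0.27 SE), lower Slc38a3 (-5.29 ± 0.16) and lower Slc7a2 (-4.09 ± 0.20). It had higher Slc38a1 (6.46 ± 0.27), higher Slc7a1 (4.77 ± 0.33), higher Slc7a5 (4.22 ± 0.16) and higher Slc7a8 (3.88 ± 0.18). Between these 2 tissues Slc7a2 was thus higher in liver and Slc7a1 in cortex in the cationic group. In system A Slc38a4 was higher in liver and Slc38a1 in cortex, although within cortex Slc38a2 had the higher median TPM. Muscle against liver gave -4.43 ± 0.15 for Slc38a3, -2.26 ± 0.17 for Slc7a2 and 2.20 ± 0.17 for Slc7a8. The cortex differences were of the same direction in mice 25-40, at -10.20 for Slc38a4, -5.61 for Slc38a3, -4.86 for Slc7a2, 5.71 for Slc7a1 and 5.48 for Slc38a1. With the main scaling Slc38a2 alone was called in opposite directions in the cohorts. Its muscle level exceeded liver by 0.72 ± 0.10 in mice 1-16, and the difference was -0.71 ± 0.13 in mice 25-40. The cohort by tissue difference itself was not tested.

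Small tissue differences depended on how libraries were scaled. With library totals in place of trimmed means of M values (TMM), the median over all genes moved from 0.25 to 1.08 for cortex against liver and from 0.24 to 1.29 for cortex against muscle in mice 1-16. It moved from 0.28 to 0.91 and from 0.23 to 1.10 in mice 25-40, and for muscle against liver from 0.03 to -0.13 and from 0.08 to -0.11. In mice 1-16 this turned the cortex against liver values of Slc38a2 (-0.58 to 0.25) and Slc38a9 (-0.47 to 0.37), the cortex against muscle value of Slc38a3 (-0.85 to 0.20) and the uncalled muscle against liver value of Slc3a2 (0.05 to -0.17). With library totals 3 calls of mice 1-16 were lost. These were Slc38a2 for cortex against liver (adjusted p 0.0557) and Slc38a2 (0.0627) and Slc38a3 (0.141) for cortex against muscle. In mice 25-40 library totals turned Slc38a2 (-0.16 to 0.73), Slc38a3 (-0.27 to 0.61) and Slc38a9 (-0.03 to 0.85) for cortex against muscle, which made 10 members called there, and Slc38a2 and Slc38a9 lost their cortex against liver calls (adjusted p 0.126 and 0.395). For muscle against liver in mice 25-40, Slc7a5 gained a call with library totals (-0.66). In mice 1-16 Slc7a5 was called in the other direction in every setting (0.37 to 0.62). For the same contrast in mice 25-40, the uncalled value of Slc3a2 turned with library totals (0.08 to -0.18). There Slc38a1 lost its call without a filter and without the mouse block. The large differences named above kept their direction.

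Whether the fasting regimen changed these carriers was asked in each tissue and cohort, IF against AL. In liver of mice 1-16, 5 of 10 members were called (Slc7a2, Slc7a5, Slc38a2 and Slc38a9 higher in IF, Slc38a3 lower), where 44.6 percent of 16204 genes were called, so the count is near the background. The 4 higher members compare with 23.5 percent of all genes called higher and the 1 lower member with 21.1 percent; the members' median was 0.49 beside 0.06 over all genes. The split of all called liver genes moved from 3815 higher and 3419 lower to 4402 and 2694 with library totals, and turned to 3593 and 3624 with RLE factors. In muscle of mice 1-16, 3 members were called (Slc7a2 higher, Slc7a1 and Slc38a4 lower), where 23.05 percent of 15025 genes were called, 11.5 percent higher and 11.6 percent lower, which is again near the background. With library totals the split of all called muscle genes moved from 1726 higher and 1737 lower to 2553 higher and 1073 lower. In cortex of mice 1-16, 1 member was called (Slc7a5, higher), where 7.21 percent of 18462 genes were called, 3.79 percent higher and 3.43 percent lower. That background of 1332 genes fell to 382 with the replicate block and 498 without AL mouse 2 and IF mouse 10, and with library totals its split turned from 699 higher and 633 lower to 571 and 688. The members' medians were 0.09 in muscle and 0.0051 in cortex, beside 0.0059 and -0.0049 over all genes.

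In mice 25-40 edgeR called 0 members in liver, muscle and cortex, and DESeq2 called 0 in each as well. At an unadjusted p under 0.05 there were 0 in liver, 2 in muscle (Slc7a2 and Slc7a8) and 1 in cortex (Slc7a8). Few genes of any kind were called in this cohort: 0 percent of 15938 genes in liver (919 at an unadjusted p under 0.05, 4 by DESeq2), 0.00653 percent of 15308 in muscle (1 gene, with 1644 at an unadjusted p under 0.05 and 82 by DESeq2) and 0.0109 percent of 18403 in cortex (2 genes, with 2069 and 61). The members' counts of 0 are therefore those of the background, and a missed threshold does not show that a gene was equal in both diets.

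**Figure D2:**
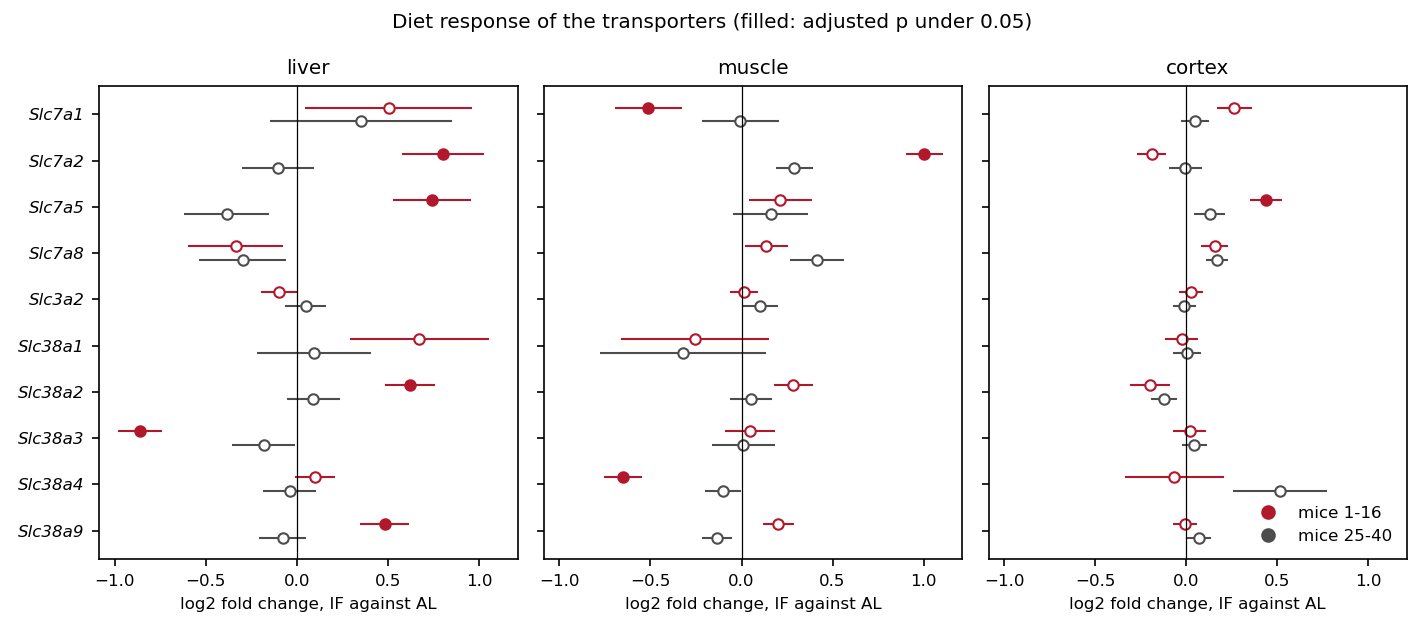
Log2 fold change of IF against AL with its SE for each member in liver, muscle and cortex; red is mice 1-16, grey is mice 25-40, and filled dots have an adjusted p under 0.05. Filled dots appear for mice 1-16 alone, from -0.86 (Slc38a3) to 0.80 (Slc7a2) in liver, while the small open value of Slc3a2 in liver (-0.10) turns to 0.0040 with library totals.

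The cationic carrier gene Slc7a2 was higher in IF in both liver and muscle of mice 1-16. In liver it ran from 87.6 to 202 CPM in AL mice (median 141) and from 122 to 409.7 CPM in IF mice (median 265). Of the 8 IF mice, 6 lay above every AL mouse, mouse 10 was lowest and mouse 13 highest. The log2 fold change was 0.80 ± 0.23 (adjusted p 0.00692). In muscle AL mice had 18.8 to 31.5 CPM (median 25.2) and IF mice 44.5 to 64.2 CPM (median 52.1). No IF muscle overlapped an AL muscle, and the log2 fold change was 1.004 ± 0.10 (adjusted p 1.11e-06). How many of all genes separate the diets in this way was not counted, here or for the other members. In cortex 7 of 8 IF mice lay below all AL mice at 11.6 to 15.9 CPM against 13.6 to 16.2, yet the change of -0.19 ± 0.08 was not called (adjusted p 0.145).

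AL livers of mice 25-40 had a higher median of Slc7a2 (279 CPM), in a range of 141 to 377 CPM that overlapped that of mice 1-16. This difference between cohorts was not tested. IF livers of mice 25-40 lay within the AL range of their cohort at 196 to 283 CPM (median 250.4). Muscle of mice 25-40 had 36.7 to 58.9 CPM in AL and 40.3 to 64.4 CPM in IF mice, overlapping through most of the range. The muscle value was 0.29 ± 0.10 (adjusted p 0.343) and the liver value -0.10 ± 0.20 (adjusted p 0.956; -0.20 without AL mouse 28, the lowest, and -0.02 without AL mouse 26, the highest). The other cationic carrier gene, Slc7a1, was lower in IF muscle of mice 1-16. In AL muscle of these mice its median was 0.391 TPM, beside 5.90 TPM for Slc7a2. AL muscles had 1.61 to 3.55 CPM (median 2.07) and IF muscles 1.06 to 2.28 CPM (median 1.63). Among the IF muscles 4 of 8 lay below all AL muscles, and AL mice 3 and 5 were highest. Its fold change of -0.51 ± 0.19 just passed the threshold (adjusted p 0.0496) and missed it with library totals (adjusted p 0.0961), without a filter on low counts (0.0696), without AL mouse 2 and IF mouse 10 (0.0583), without IF mice 9, 10 and 12 (0.0828) and with the replicate block, in which AL and IF mice of 1 replicate number form a pair (0.0911). In cortex of mice 1-16 the value for Slc7a1 was 0.26 ± 0.09 (adjusted p 0.0874), with 4 of 8 IF mice above all AL mice.

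Slc7a5, the large neutral amino acid exchanger of the blood-brain barrier, was higher in IF in liver and in cortex of mice 1-16. Liver held little of it, 1.58 to 3.24 CPM in AL mice (median 2.21) and 2.14 to 5.34 CPM in IF mice (median 4.37). Again 6 of 8 IF livers lay above all AL livers, with mouse 10 lowest and mouse 13 highest. The log2 fold change in liver was 0.74 ± 0.21 (adjusted p 0.00653). In cortex, where the gene is abundant, AL mice had 58.3 to 84.5 CPM (median 75.1) and IF mice 78.8 to 119 CPM (median 97.0). There 7 of 8 IF mice exceeded all AL mice and mouse 9 did not, and the fold change was 0.44 ± 0.09 (adjusted p 0.00721). In mice 25-40 cortex had 78.4 to 117 CPM in AL and 95.1 to 117 CPM in IF mice, which overlap, with a value of 0.13 ± 0.08 (adjusted p 0.546), and the liver value was -0.38 ± 0.23 (adjusted p 0.861).

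The other system L genes, the heavy chain gene Slc3a2 and the light chain gene Slc7a8, did not pass the test in any tissue. Slc3a2 had nearly the same range in both diets in liver of mice 1-16, 30.2 to 39.5 CPM in AL and 31.3 to 41.0 CPM in IF mice. In cortex it had 123 to 159.6 CPM in AL and 126 to 151 CPM in IF mice, again overlapping. Its values were -0.10 ± 0.10 in liver (0.0040 with library totals), 0.01 in muscle and 0.03 in cortex. Slc7a8, an exchanger of small as well as large neutral amino acids, gave -0.34 ± 0.26 in liver, 0.14 in muscle and 0.16 ± 0.07 in cortex (adjusted p 0.208). In mice 25-40 its muscle levels were 8.06 to 15.7 CPM in AL and 11.3 to 18.9 CPM in IF mice, with an uncalled value of 0.41 ± 0.15 (adjusted p 0.351).

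Of the system A genes, Slc38a2, the form whose transcription is known to respond to amino acid shortage, was higher in IF liver of mice 1-16. AL livers had 55.3 to 85.7 CPM (median 64.8) and IF livers 59.1 to 151 CPM (median 113). Once more 6 of 8 IF livers lay above all AL livers, mouse 10 was lowest and mouse 13 highest. The log2 fold change was 0.62 ± 0.14 (adjusted p 0.000728). In muscle AL mice had 76.2 to 113 CPM (median 88.8) and IF mice 82.6 to 152 CPM (median 116), with 4 of 8 IF mice above all AL mice. The muscle value of 0.28 ± 0.11 missed the threshold (adjusted p 0.0628), and was past it with library totals (0.0380), with DESeq2 (0.0396), with the replicate block (0.0477) and without mice 9, 10 and 12 (0.0232). Cortex gave -0.20 ± 0.11 (adjusted p 0.279). In mice 25-40 the liver ranges were 61.9 to 117 CPM in AL and 71.8 to 126 CPM in IF mice, overlapping almost wholly, with a value of 0.09.

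Slc38a4, a gene expressed chiefly in liver and muscle, was lower in IF muscle of mice 1-16. AL muscles had 80.5 to 128 CPM (median 102) and IF muscles 52.4 to 82.7 CPM (median 64.7). All IF muscles except that of mouse 11 lay below every AL muscle, and the fold change was -0.65 ± 0.10 (adjusted p 0.000176). Liver of the same mice had 438 to 653 CPM in AL and 476 to 669 CPM in IF mice, which overlap, with a value of 0.10 ± 0.11 (adjusted p 0.491). Muscle of mice 25-40 had less (not tested between cohorts), 40.1 to 66.7 CPM in AL and 37.99 to 59.7 CPM in IF mice. Its value was -0.10 ± 0.10 (adjusted p 0.747). Slc38a1, the neuronal form, was at 86.9 to 127 CPM in AL and 85.1 to 123 CPM in IF cortex, the same range, with a value of -0.02. In liver it stayed at 2.80 CPM or less in mice 1-16, and its value of 0.67 ± 0.38 was not called (adjusted p 0.157).

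Slc38a3, the glutamine carrier that was the most abundant member in liver per length, was the 1 member called lower in IF liver of mice 1-16. In mice 1-16 AL livers had 1521 to 2851 CPM (median 2015) and IF livers 1035 to 1450.3 CPM (median 1238). Every IF liver lay below every AL liver, the highest IF liver being mouse 9 and the lowest AL liver mouse 7. The log2 fold change was -0.86 ± 0.12 (adjusted p 3.52e-06). Muscle of these mice had 60.3 to 104 CPM in AL and 65.6 to 121 CPM in IF mice, and cortex had 80.8 to 116 CPM and 74.2 to 113 CPM. Both pairs of ranges overlap, and the values were 0.05 in muscle and 0.02 in cortex. Livers of mice 25-40 had 2083 to 4834 CPM in AL (median 3551) and 2374 to 4315 CPM in IF mice (median 3028). The IF livers lay within the AL range, and the value was -0.18 ± 0.17 (adjusted p 0.892; -0.27 without AL mouse 28 and -0.11 without AL mouse 26).

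Slc38a9, the lysosomal arginine sensor, was higher in IF liver of mice 1-16. AL livers had 10.5 to 17.5 CPM (median 12.6) and IF livers 14.3 to 27.4 CPM (median 19.3). As for Slc7a2, Slc7a5 and Slc38a2, 6 of 8 IF livers lay above all AL livers and mouse 10 was lowest, while mouse 9 was highest here. The fold change was 0.48 ± 0.13 (adjusted p 0.00521). In muscle the AL range of 5.38 to 7.23 CPM and the IF range of 6.53 to 8.44 CPM overlapped in 2 IF mice, and the value of 0.20 ± 0.09 (adjusted p 0.0930) passed the threshold with library totals alone among the alternatives. Cortex was alike in both diets at 15.7 to 19.6 CPM in AL and 15.8 to 18.9 CPM in IF mice. Liver of mice 25-40 had 14.2 to 27.8 CPM in AL and 13.4 to 20.1 CPM in IF mice, and the value of -0.08 turned to 0.033 without AL mouse 26, the highest of that group.

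**Figure D3:**
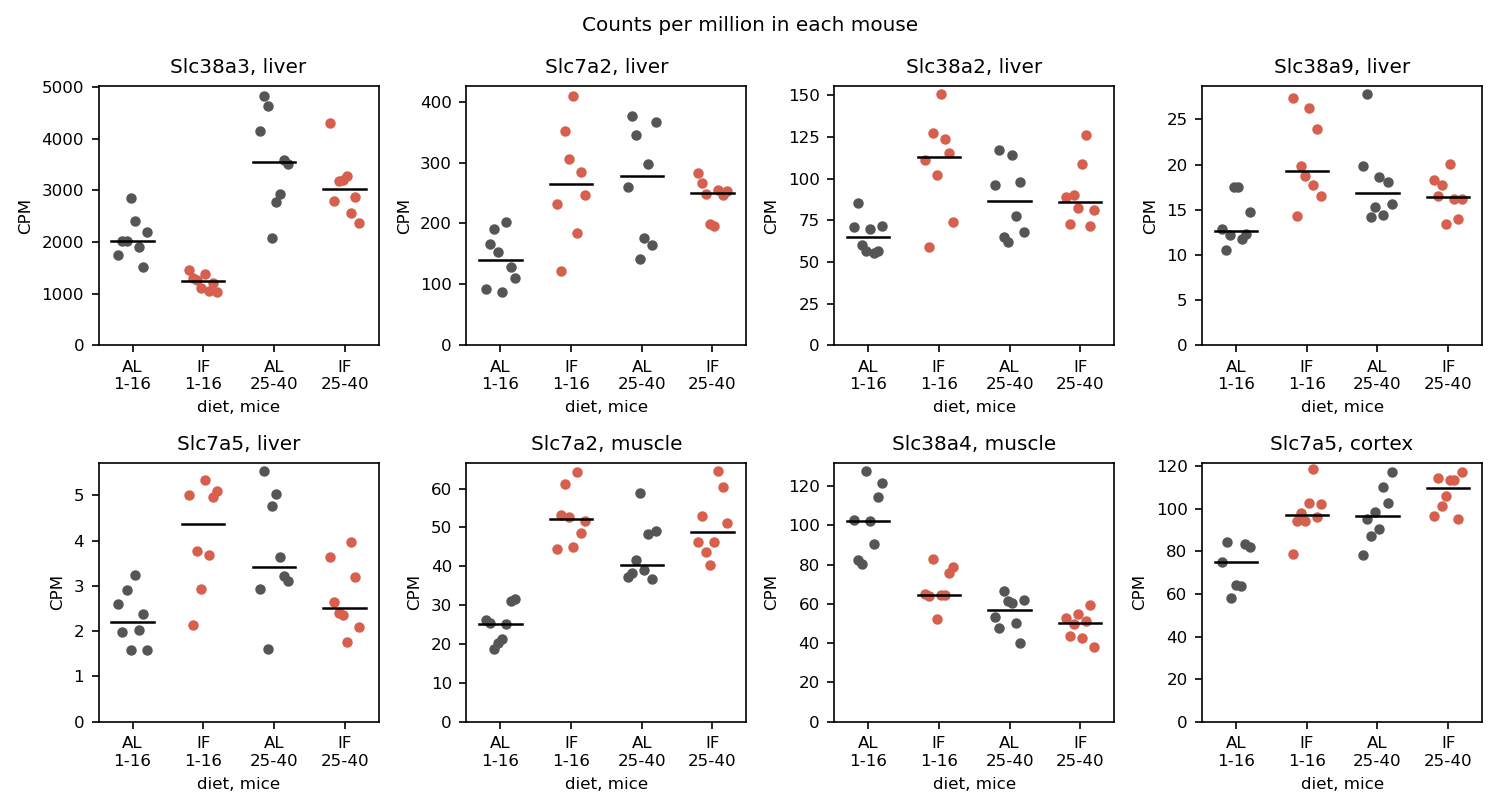
CPM of the members called in the diet comparisons at an adjusted p under 0.05, except Slc7a1 in muscle, in each mouse (dots) with the group median (black line); panels are 1 gene in 1 tissue, columns are AL and IF of mice 1-16 and of mice 25-40, and axes start at 0. In mice 1-16 IF livers lie wholly below AL livers for Slc38a3 and IF muscles wholly above AL muscles for Slc7a2, while in the other panels 6 or 7 of 8 IF mice of that cohort lie outside the AL range. The panels were picked by the diet test on these same mice, and such separation was not counted over all genes.

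Whether the diet response differed between the cohorts was tested as the cohort by diet term in each tissue. In liver 4 members differed, where 23.7 percent of 17658 genes did. The response of mice 25-40 minus that of mice 1-16 was -1.09 ± 0.31 for Slc7a5 (adjusted p 0.00893), -0.87 ± 0.31 for Slc7a2 (0.0379) and -0.53 ± 0.19 for Slc38a9 (0.0349). For Slc38a3 it was 0.71 ± 0.21 (0.0123), so each of these 4 liver responses of mice 1-16 was larger in size than in mice 25-40. Slc38a2 at -0.49 ± 0.20 missed the threshold (0.0742). Without a filter on low counts 2 of the 4 passed, Slc7a5 and Slc38a3.

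In muscle 3 members differed between cohorts, where 14.2 percent of 16346 genes did. The difference was -0.70 ± 0.15 for Slc7a2 (adjusted p 0.00197) and 0.57 ± 0.15 for Slc38a4 (0.0102). Slc38a9 was also called at -0.32 ± 0.11 (0.0470), although neither cohort's own muscle response was, and this call was lost without a filter on low counts (0.154). In cortex edgeR and DESeq2 called 0 members and 1 had an unadjusted p under 0.05, where 2.03 percent of 19547 genes were called; Slc7a5 gave -0.30 ± 0.12 (adjusted p 0.207).

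Tissues of mice 1-16 also differed in their diet response, tested as the tissue by diet term with mouse as a block; both contrasts share the liver libraries. Muscle against liver gave 3 members, where 30.97 percent of 21608 genes were called. The response of muscle minus that of liver was 0.94 ± 0.18 for Slc38a3 (adjusted p 0.000122), -0.73 ± 0.21 for Slc38a4 (0.00624) and -1.05 ± 0.38 for Slc7a1 (0.0332, and 0.0666 without a filter on low counts). Slc7a2, higher in IF in both tissues, was not among them. Cortex against liver gave 4 members, where 26.7 percent of genes were called, and with library totals the median of all genes moved from -0.01 to -0.14. The response of cortex minus that of liver was 0.90 ± 0.18 for Slc38a3 (0.000321), -0.94 ± 0.24 for Slc7a2 (0.00379), -0.75 ± 0.19 for Slc38a2 (0.00328) and -0.44 ± 0.15 for Slc38a9 (0.0267, and 0.0835 without a filter). Slc7a5, higher in IF in both liver and cortex, was not called. In mice 25-40 edgeR called 0 members in either contrast (2 and 2 at an unadjusted p under 0.05), where 0.0047 and 0 percent of 21292 genes were called (1648 and 2037 genes at an unadjusted p under 0.05); DESeq2 was not run on this term.

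Markers of other cell types moved with diet in the tissues where members changed, and in bulk samples fewer cells of a type and less RNA per cell cannot be told apart. Over all marker lists in mice 1-16, 21 of 39 genes tested were called in liver, 14 of 40 in muscle and 7 of 42 in cortex, where 44.6, 23.05 and 7.21 percent of all genes were called. These counts include the sex-linked list, which marks no cell type (3 of 4 called in liver, 4 of 4 in muscle and 0 of 4 in cortex, the last with 1 at an unadjusted p under 0.05 and 1 by DESeq2), and single marker calls in liver are near the background. In liver of mice 1-16, 3 of 5 erythroid genes were higher in IF, and their summed level was 362 to 956 CPM in AL (median 569) and 667 to 6879 CPM in IF mice (median 2070.4). The most abundant, Hba-a1, ran from 229 to 619 CPM in AL and from 299 to 3238 CPM in IF mice, with mice 9 and 10 highest in the sum. Without these IF livers the members gave 0.96 for Slc7a2, 0.81 for Slc7a5, 0.72 for Slc38a2, 0.49 for Slc38a9 and -0.92 for Slc38a3, all 5 called. This leaving out was chosen after the data were seen. Of the endothelial genes 3 of 5 were higher in IF liver (Kdr 1.07, Emcn 1.38, Tek 0.54), with a sum of 41.4 to 61.5 CPM in AL and 67.3 to 117 CPM in IF mice and Kdr as the most abundant. Of the 3 bile duct genes Krt19 (1.14) and Epcam (1.88) were higher and Sox9 (-1.26), the most abundant in AL mice, lower, and their sums of 6.04 to 26.5 CPM in AL and 9.66 to 33.8 CPM in IF mice overlapped. The part of endothelial and bile duct cells in the liver values of Slc7a2, Slc7a5, Slc38a2, Slc38a3 and Slc38a9 was not tested. Nor was the part of erythroid cells. Leaving out mice 9 and 10, which had the highest erythroid sums, is no test of it. The IF median of 2070.4 CPM exceeds the highest AL liver at 956 CPM, so other IF livers still lay above all AL livers. Of the hepatocyte genes 2 of 5 were called, Cyp2e1 higher (1.55) and Apoa1 lower (-0.48), their sum was 50162 to 75831 CPM in AL and 44974 to 69000.1 CPM in IF mice, and Alb, the most abundant, gave -0.29 (adjusted p 0.113).

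In muscle of mice 1-16, 3 of 4 fat cell genes were higher in IF (Adipoq 2.25, Cidec 2.52, Plin1 2.20). Their list summed to 9.81 to 121 CPM in AL (median 34.3) and 35.8 to 613 CPM in IF mice (median 176), and Cidec, the most abundant, reached 262 CPM. Mice 12, 10 and 9 had the highest sums, and Lep, at 0 CPM in IF mouse 11, was not called (-1.25). Without them, a choice made after the data were seen, the muscle values were 1.05 for Slc7a2, -0.55 for Slc38a4 and -0.54 for Slc7a1, the last no longer called (adjusted p 0.0828). Of the 2 hepatocyte genes tested in muscle, Cyp2e1 was higher (4.02, 34.9 to 207 CPM in IF mice), while Alb stayed at 2.40 CPM or less. The fibre genes Ckm (-0.19) and Mylpf (-0.29) were lower, 2 of 5 in that list, which summed to 129105 to 138436 CPM in AL and 113459 to 149876 CPM in IF muscle. Kdr (-0.54), 1 of 5 endothelial genes called, and Csf1r (-0.44), 1 of 3 macrophage genes called and the most abundant of them, were lower too. The endothelial list, led by Cdh5, summed to 122 to 166 CPM in AL and 124 to 192 CPM in IF muscle, and the macrophage list to 10.7 to 20.3 CPM and 9.72 to 19.3 CPM, each overlapping. The part of these cells in the muscle values was not tested. Leaving out mice 12, 10 and 9 is no test for fat cells, as the IF median of 176 CPM exceeds the highest AL muscle at 121 CPM.

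In cortex of mice 1-16, beside the higher Slc7a5, 2 of 4 blood-brain barrier genes were called in opposite directions, Cldn5 lower (-0.43) and Slc2a1, the most abundant of the list in IF mice, higher (0.64). This list summed to 226 to 264 CPM in AL and 250.03 to 307 CPM in IF mice, overlapping in part. Of the oligodendrocyte genes 2 of 3 were higher (Mbp 0.59, Mog 0.53), with a sum of 3523 to 5514 CPM in AL and 4751 to 7892 CPM in IF mice and Mbp as the most abundant. The astrocyte list had Aqp4 called lower (-0.51, 1 of 4) and Aldh1l1 at 0.26 (not called), and its sums of 448 to 646 CPM in AL and 436 to 534 CPM in IF mice overlapped. The leukocyte gene Ptprc (-0.74) and Sox9 (-0.54) were lower. Of 5 general endothelial genes edgeR called 0, with 3 at an unadjusted p under 0.05 (Kdr -0.55, Emcn -0.39, Tek -0.23) and 3 called by DESeq2, and the list's sum, led by Pecam1, was 57.5 to 69.9 CPM in AL and 44.4 to 60.4 CPM in IF mice. The hepatocyte list summed to 5.30 to 3104 CPM in AL and 4.64 to 3368 CPM in IF cortex. Of its 4 genes tested there edgeR and DESeq2 called 0, and 1 had an unadjusted p under 0.05. Of 5 neuronal genes edgeR and DESeq2 called 0 and 0 had an unadjusted p under 0.05. The part of these cells in the cortex value of Slc7a5 was not tested. In mice 25-40 edgeR called 0 marker genes in any tissue. At an unadjusted p under 0.05 there were 0 in liver, 10 in muscle and 5 in cortex, and DESeq2 called 0, 2 and 0. The 10 in muscle were 5 of 5 endothelial, 2 of 3 blood-brain barrier, 2 of 5 fibre and 1 sex-linked gene. The endothelial sum in that muscle was 110 to 194 CPM in AL and 73.1 to 137 CPM in IF mice. The part of these cells in the muscle values of this cohort was not tested.

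The members were set beside 45 other amino acid transporter genes. In liver of mice 1-16, 22 of these were tested, 4 higher and 3 lower in IF, with a median of 0.18, where 23.5 and 21.1 percent of all genes were called higher and lower. Slc1a2, a glutamate carrier of pericentral hepatocytes, had 62.5 to 135 CPM in AL and 222 to 298 CPM in IF livers, without overlap, and a fold change of 1.28 ± 0.14. The glutamine exchanger Slc1a5 (1.22 ± 0.14) and Slc43a2 (0.60 ± 0.13) were higher, and the alanine and serine carrier Slc1a4 (-1.57 ± 0.27) and the lysosomal Slc36a1 (-1.33 ± 0.11) lower. In muscle 22 were tested, 7 higher and 5 lower, with a median of 0.13, where 11.5 and 11.6 percent of all genes were called higher and lower. There Slc36a2 (3.07 ± 0.68), Slc7a10 (2.33 ± 0.56), the glutamate carrier Slc1a3 (2.15 ± 0.39) and Slc1a5 (1.59 ± 0.35) were higher and the glycine carrier Slc6a9 (-0.91 ± 0.19) lower, in the muscles whose fat cell genes were higher too. In cortex 32 were tested, 2 higher (Slc1a5 0.70 ± 0.15, Slc43a2 0.43 ± 0.10) and 1 lower (the cystine exchanger Slc7a11, -0.40 ± 0.11), with a median of 0.04, where 7.21 percent of all genes were called.

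Slc38a9 is 1 of several inputs to mTORC1. Of 35 other genes of amino acid sensing there, 34 were tested in liver of mice 1-16, with 12 higher and 4 lower, near the 44.6 percent called over all genes, and a median of 0.15 beside 0.06. Rragd (1.13 ± 0.30), a GTPase that recruits mTORC1, and its regulator Flcn (1.08 ± 0.18) were higher, and Castor2 (-1.39 ± 0.14), of the cytosolic arginine sensor family, lower. In muscle 7 of 35 were higher and 5 lower (23.05 percent of all genes called) with a median of 0.00039, and Castor1 at 0.85 ± 0.20, Sesn1 at 0.70 ± 0.13 and Rptor at -0.37 ± 0.06. In cortex 4 of 35 were higher and 1 lower (7.21 percent of all genes called) with a median of 0.02, and Castor1 at 0.60 ± 0.16, Mlst8 at 0.42 ± 0.10 and Tsc1 at 0.39 ± 0.08. ATF4 is a transcription factor of amino acid shortage, and Slc38a2, Slc7a5 and Slc3a2 are among the genes it is known to drive. Of Atf4 and the genes listed with it, 18 were tested in liver, 7 higher and 4 lower with a median of 0.38, where 23.5 and 21.1 percent of all genes were called higher and lower. The lower ones were Atf4 itself, Atf5, Shmt2 and Cth, named after their values were seen, and the higher ones included Cebpb (1.56 ± 0.18), Chac1 (1.499 ± 0.43) and asparagine synthetase Asns (1.44 ± 0.30). In muscle 8 of 19 were higher and 2 lower (Atf5 and Shmt2), where 11.5 and 11.6 percent of all genes were, with a median of 0.32, with Ddit4 at 2.88 ± 0.31, Chac1 at 1.87 ± 0.49 and Asns at 1.80 ± 0.36. In cortex 2 of 19 were higher, Ddit4 (0.68 ± 0.12) and Psat1 (0.33 ± 0.06), and 0 lower, where 7.21 percent of all genes were called, and the list's median was -0.04 beside -0.0049.

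Glutamine and arginine carried by Slc38a3 and Slc7a2 meet enzymes of the liver zones, of which 13 were listed: those of the urea cycle and of glutamine and ornithine turnover, and Tat, Sds and Tdo2, which break down tyrosine, serine and tryptophan. In liver of mice 1-16, 3 were higher and 3 lower with a median of 0.15, near the 44.6 percent called over all genes: Otc (-1.36 ± 0.14) was lower and Asl (0.97 ± 0.10) higher. In muscle 2 of 5 tested were higher, where 11.5 percent of all genes were, among them glutamine synthetase Glul at 1.60 ± 0.13. In cortex edgeR called 0 of 9, where 7.21 percent of all genes were called, with 2 at an unadjusted p under 0.05 and 1 called by DESeq2. In mice 25-40 edgeR called 0 genes of these 4 lists in any tissue, and DESeq2 called 1, in the muscle ATF4 list; at an unadjusted p under 0.05 each list held 0 to 6 genes in a tissue.

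Promoter sequence was taken from RefSeq (build GRCm38.p6), where 6 of the 10 members have 9 windows of 250 bases before and 50 bases after a transcription start; Slc7a2, Slc7a5, Slc38a1 and Slc38a3 have no entry. Each window was placed by its single exact match in GRCm39. The member windows held a median of 15 CG dinucleotides and 56 percent G and C, against 7 and 52.67 percent over all 32851 windows. Searched on both strands, none of 7 motifs occurred in the 9 member windows: the C/EBP-ATF element TGATGNAAN (3.95 percent of all windows), the cyclic AMP element TGACGTCA (1.79 percent), the forkhead motif GTAAACA (3.65 percent), the E-box CACGTG (7.15 percent), the D-box TTATGTAA (0.938 percent), the glucocorticoid element (0.00913 percent) and the DR1 element (0.0396 percent). This says only that these letters are not in these windows. Of the 4 members with a window that were called by diet, the 250 bases before the start are shown for the 3 whose call held in every alternative: Slc38a2 and Slc38a9 in liver and Slc38a4 (the most upstream of 3 starts) in muscle. They differ in CG content: with CG in capitals, 30 lie before the start of Slc38a2 (chr15:96597610-96597859, minus strand), 15 before that of Slc38a9 (chr13:112797050-112797299, plus strand) and 3 before that of Slc38a4 (chr15:96953838-96954087, minus strand). The last 15 of the Slc38a9 bases and the last 2 of the Slc38a2 bases lie inside the deposited gene's bounds. All coordinates are in GRCm39 and each sequence reads 5′ to 3′ on the gene's strand.
Slc38a2: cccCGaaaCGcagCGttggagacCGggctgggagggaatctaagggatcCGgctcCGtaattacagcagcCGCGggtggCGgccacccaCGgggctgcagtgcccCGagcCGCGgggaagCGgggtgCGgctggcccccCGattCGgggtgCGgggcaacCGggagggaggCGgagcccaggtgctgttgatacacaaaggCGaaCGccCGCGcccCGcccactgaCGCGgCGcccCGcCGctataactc
Slc38a9: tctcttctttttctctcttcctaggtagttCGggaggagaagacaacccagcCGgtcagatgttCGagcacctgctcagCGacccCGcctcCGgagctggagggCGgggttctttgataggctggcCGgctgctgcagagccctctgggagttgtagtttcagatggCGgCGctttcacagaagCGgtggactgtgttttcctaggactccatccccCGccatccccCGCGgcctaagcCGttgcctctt
Slc38a4: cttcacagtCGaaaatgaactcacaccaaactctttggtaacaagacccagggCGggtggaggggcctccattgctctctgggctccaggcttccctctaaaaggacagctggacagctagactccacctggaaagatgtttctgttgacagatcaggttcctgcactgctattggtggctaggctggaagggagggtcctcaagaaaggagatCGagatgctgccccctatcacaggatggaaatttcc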

How the data were processed

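Gene counts from RNA sequencing of liver, muscle and cortex were used as the authors deposited them: the unit is the read count per gene, made by aligning to GRCm39 (mm39) with HISAT2; the strand setting of counting is not given in the sources used here. CPM and TPM were computed from these counts, total counted reads and the deposited gene lengths. Diet, cohort by diet and tissue by diet effects were fitted with edgeR 4.0.16 in R 4.3.3 (TMM scaling, filterByExpr with a minimum count of 10 and a minimum total of 15, robust quasi-likelihood test), with p-values adjusted by Benjamini-Hochberg over all genes tested and a threshold of 0.05. SE is the fold change divided by the root of its F statistic. Alternatives were other scalings, DESeq2 1.42.0, other filters, blocks and left-out mice. A repeated number across AL and IF mice was not treated as a pairing. It was checked by correlating the deviations of same-numbered mice from their group means, in log2 CPM from edgeR. In most groups 1 or 2 pairs of the same number correlated over 0.1. In muscle of mice 25-40, 4 of 8 pairs did (highest 0.457). Marker lists and the lists of other transporters, amino acid sensing at mTORC1, ATF4 targets and enzymes were written by hand; the members and lists were chosen with earlier results of these data known. Ddit3 of the ATF4 list matched 2 rows and was not used. Named genes are all 10 members and, from each other list in each diet comparison, up to 3 genes (5 for other transporters) with the largest fold change among those called with a mean of at least 1 CPM; marker genes are named as measured. Some genes that this rule picks are not reported here. Figures were drawn with matplotlib 3.10.9 from tables made in Python 3.11.15 with pandas 2.3.3 and numpy 2.4.6. The cortex library of AL mouse 1 was left out.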

Additional observations from a re-analysis of the deposited data

Results flagged for a closer look

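In 9 of 120 groups of libraries (1 member in 1 tissue, diet and cohort) 1 library stood far from the others; chance alone picks out about 1 in 20 groups. Liver of AL mouse 28 did so for 3 members: Slc7a8 at 13.4 CPM (next 6.42), Slc3a2 at 60.02 CPM (next 46.3) and Slc38a1 at 4.46 CPM (next 1.92). The same liver had a summed macrophage level of 178 CPM, where the other AL livers of its cohort had 41.5 to 65.0 CPM; the part of these cells was not tested. AL mouse 7 stood high in cortex for Slc7a1 at 40.6 CPM (next 32.6), and IF mouse 12 in cortex for Slc7a2 at 15.9 CPM (next 13.3). IF mouse 33 stood high in cortex for Slc38a2 at 92.8 CPM (next 73.2) and in liver for Slc38a3 at 4315 CPM (next 3276). The remaining ones were Slc38a1 in muscle of IF mouse 39 at 1.60 CPM (next 0.807) and Slc38a9 in liver of AL mouse 26 at 27.8 CPM (next 19.8).

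Diet responses that differed between groups by an interaction term, on the log2 scale, were of 2 kinds. Between cohorts (mice 25-40 minus mice 1-16) they were, in liver, Slc7a2 at -0.87, Slc7a5 at -1.09, Slc38a3 at 0.71 and Slc38a9 at -0.53, and in muscle Slc7a2 at -0.70, Slc38a4 at 0.57 and Slc38a9 at -0.32; cohort and sex label cannot be told apart. Between tissues of mice 1-16 they were, for muscle minus liver, Slc7a1 at -1.05, Slc38a3 at 0.94 and Slc38a4 at -0.73, and for cortex minus liver Slc7a2 at -0.94, Slc38a2 at -0.75, Slc38a3 at 0.90 and Slc38a9 at -0.44.

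The cortex library of AL mouse 1, labelled male and not used, held 213 CPM of Xist, above the 0.612 CPM that is the highest value in the other libraries of mice 1-16.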

How the results depend on the processing

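Of 425 diet values of members under alternatives, 400 kept their direction and side of the threshold, 15 reversed, 5 gained and 5 lost the call; for cohort differences 87 of 90 and for tissue differences of the diet response 158 of 160 were kept, and for levels between tissues 226 of 240. The values called in every alternative ran from 0.77 to 0.96 for Slc7a2, 0.71 to 0.84 for Slc7a5, 0.58 to 0.73 for Slc38a2, -0.92 to -0.76 for Slc38a3 and 0.45 to 0.59 for Slc38a9 in liver, from 1.003 to 1.08 for Slc7a2 and -0.67 to -0.55 for Slc38a4 in muscle and from 0.42 to 0.49 for Slc7a5 in cortex of mice 1-16. Reversed values were all near 0 in the diet comparisons. With library totals they were, in mice 1-16, Slc3a2 in liver (0.0040), and in mice 25-40 Slc38a2 (-0.019) and Slc38a3 (-0.064) in muscle and Slc7a2 in cortex (0.00092). Library totals also reversed the level differences of Slc3a2 for muscle against liver (-0.17 in mice 1-16, -0.18 in mice 25-40), of Slc38a2 (0.25) and Slc38a9 (0.37) for cortex against liver and Slc38a3 (0.20) for cortex against muscle in mice 1-16, and of Slc38a2 (0.73), Slc38a3 (0.61) and Slc38a9 (0.85) for cortex against muscle in mice 25-40. Slc7a1 in muscle of mice 25-40 (-0.0065) was 0.0045 with RLE factors, 0.0057 with DESeq2, 0.0083 without a filter and 0.0053 with the replicate block. The filter asking 10 counts in every library gave 0.00015 for Slc38a9 in cortex of mice 1-16, and no filter gave -0.0028 for Slc38a1 in cortex of mice 25-40. With the replicate block Slc38a4 in cortex of mice 1-16 was 0.071, and without AL mouse 2 and IF mouse 10, absent from the headers of the study's proteome tables, it was 0.091 and Slc38a3 was -0.015. Without IF mice 9, 10 and 12, chosen after seeing the data, Slc3a2 in muscle was -0.020, and without AL mouse 26, also chosen after seeing the data, Slc38a9 in liver of mice 25-40 was 0.033. Counts of called genes moved in cortex of mice 1-16 from 1332 to 2187 with DESeq2, 382 with the replicate block and 498 without AL mouse 2 and IF mouse 10. In mice 25-40 they moved in liver from 0 to 4 with DESeq2, in muscle from 1 to 82 with DESeq2 and 5 without a filter, and in cortex from 2 to 61 with DESeq2 and 0 with library totals and with the replicate block. Between cohorts, 4 liver members became 2 without a filter, and 397 cortex genes became 709 with DESeq2 and 220 without a filter. Between tissues of mice 25-40, the 1 gene of muscle against liver became 2 with RLE factors, 4 with library totals, 0 without a filter and 13 without the mouse block, and the 0 of cortex against liver became 12 without the mouse block. The cause of these moves was not tested, and leaving out mice also left fewer mice in the fit. Depth limits Slc7a1 and Slc38a1 in liver and Slc38a1 in muscle, which have few counts, and bulk counts of whole tissue do not separate cell types.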

Other observations

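In the cortex library of AL mouse 1, which was left out of every comparison, the members stood at 39.1 CPM for Slc7a1, 11.2 CPM for Slc7a2, 112 CPM for Slc7a5, 98.2 CPM for Slc7a8 and 144 CPM for Slc3a2. The Slc38 members stood at 107 CPM for Slc38a1, 58.6 CPM for Slc38a2, 104 CPM for Slc38a3, 0.647 CPM for Slc38a4 and 16.8 CPM for Slc38a9.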
